A study of Mus musculus with 28 samples.

Results

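The sarcomere and Z-disc genes are 49 genes of the contractile apparatus of striated muscle, listed by symbol. They comprise actins, troponins, tropomyosins, myosin chains, myosin-binding proteins, M-band proteins, Z-disc proteins, and LIM, ankyrin-repeat and Xin proteins that respond to strain or sit at junctions. Of the 49 genes, 36 were measured by a probe set to which the platform annotation gives that symbol alone. These 36 genes have 39 of the 17831 probe sets, because Actc1, Tpm3 and Pdlim5 have 2 each. The other 13 were not analysed here. For 9 of them (Tnnt1, Neb, Lmod2, Myl3, Myom3, Ttn, Myoz3, Flnc and Xirp2) no probe set is listed, and the myosin heavy chain genes Myh1, Myh2, Myh4 and Myh7 appear only in probe sets that carry several symbols.

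A sarcomere is the repeating contractile unit of a muscle fibre. Myosin thick filaments slide along actin thin filaments, troponin and tropomyosin gate the thin filament by calcium, the M-band holds the thick filaments together and the Z-disc anchors the thin filaments of neighbouring sarcomeres. Fast and slow fibres carry different isoforms of many of these proteins, and LIM and ankyrin-repeat proteins near the Z-disc and titin are known to respond to mechanical load.

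Muscle RNA was measured on 28 whole-transcript arrays of mice given an intracerebroventricular injection of IL-1b (interleukin 1b, a cytokine of inflammation) or of vehicle. Muscle taken after 2, 4 and 8 h gave 5, 5 and 3 arrays with IL-1b and 5 arrays at each time with vehicle, so the injection itself is common to all groups. The sources used here do not give strain, sex, age, the IL-1b dose or which muscle was taken. They also do not tie arrays to individual mice, and the p-values below therefore measure no more than the spread between arrays, which may be technical. Values were taken as log2, although the log base is not stated. They were centred by the authors on the median of each probe set, so that 0 is the middle array and no value is an expression level. For this reason neither the tissue markers nor the levels of different genes could be compared, and the 13 lists of other genes described further on are given as differences too. The SD over probe sets was 0.330 for IL-1b 8 h replicate 22, 0.317 for vehicle 8 h replicate 1 and 0.298 for vehicle 2 h replicate 7, and no other array exceeded 0.223.

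The slow troponins Tnni1 and Tnnc1 (r = 0.965) and the strain-responsive genes Csrp3 and Ankrd1 (r = 0.806) are pairs whose deviations from group means varied together between arrays, and other pairs of members did too. The 250 bases before the most upstream start of these 4 genes are shown as the promoter sequences of such pairs. They come from RefSeq on GRCm38.p6, in which 28 of the 36 measured genes were matched, and are printed 5′ to 3′ along the gene's strand. The 4 were chosen after their values were seen. Capitals mark matches to the E-box CAGCTG, which basic helix-loop-helix factors such as MyoD bind, and to the MCAT box CATTCC in either orientation, which TEAD factors bind. The Tnni1 window is chr1:135799171-135799420 on the plus strand, the Tnnc1 window is chr14:31208062-31208311 on the plus strand, the Csrp3 window is chr7:48848052-48848301 on the minus strand and the Ankrd1 window is chr19:36119845-36120094 on the minus strand.
Tnni1: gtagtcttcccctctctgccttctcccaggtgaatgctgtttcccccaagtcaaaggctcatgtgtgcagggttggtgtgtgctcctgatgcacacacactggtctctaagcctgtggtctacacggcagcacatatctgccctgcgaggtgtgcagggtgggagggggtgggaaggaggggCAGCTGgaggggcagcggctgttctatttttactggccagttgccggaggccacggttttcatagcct
Tnnc1: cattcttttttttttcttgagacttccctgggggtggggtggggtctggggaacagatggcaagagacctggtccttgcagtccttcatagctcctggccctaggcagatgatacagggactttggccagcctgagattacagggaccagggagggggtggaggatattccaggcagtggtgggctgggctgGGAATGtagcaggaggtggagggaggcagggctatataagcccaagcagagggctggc
Csrp3: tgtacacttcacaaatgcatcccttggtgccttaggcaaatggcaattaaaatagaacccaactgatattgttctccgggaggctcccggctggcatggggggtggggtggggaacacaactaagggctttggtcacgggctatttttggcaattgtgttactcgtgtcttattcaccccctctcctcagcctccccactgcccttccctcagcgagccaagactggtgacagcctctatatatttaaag
Ankrd1: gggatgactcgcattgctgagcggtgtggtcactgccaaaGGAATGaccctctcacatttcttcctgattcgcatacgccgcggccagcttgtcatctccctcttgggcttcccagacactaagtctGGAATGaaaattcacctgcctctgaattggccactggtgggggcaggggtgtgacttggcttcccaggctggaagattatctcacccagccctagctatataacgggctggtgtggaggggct
Both strands were searched for each motif. The E-box match of Tnni1 lies at -68 to -63 from the start, the MCAT match of Tnnc1 at -58 to -53, and the MCAT matches of Ankrd1 at -210 to -205 and -123 to -118. Csrp3 had no match to these letters, and none of the 4 windows matched the MEF2 box or the CArG box, the element of serum response factor. Among 32851 windows of the same length in the table, 12.6% held the MCAT box, 13% the E-box, 2.92% the MEF2 box and 1.47% the CArG box. A match is a description of the letters in these windows and not a measured site.

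None of the 39 probe sets of sarcomere and Z-disc genes passed the threshold between IL-1b and vehicle muscle at 2, 4 or 8 h. The test was limma at an adjusted p of 0.01 (Benjamini-Hochberg, 17831 probe sets), and 0.0729%, 0.847% and 2.09% of all probe sets were called at 2, 4 and 8 h. At an unadjusted p under 0.05 the count of member probe sets was 5 at 2 h, 3 at 4 h and 7 at 8 h, against 10.6%, 8.78% and 12.9% of all probe sets. Both Actc1 probe sets are in the counts at 2 and 8 h, and both Pdlim5 probe sets in the count at 8 h. The smallest adjusted p of a member was 0.339 at 2 h, 0.41 at 4 h and 0.0173 at 8 h, the last for the Z-disc gene Pdlim5. The median difference of the members was -0.00135 at 2 h, 0.0164 at 4 h and 0.00467 at 8 h on the log2 scale, against -0.0192, 0.00331 and -0.000439 over all probe sets.

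The precision of these differences can be read from their 95% intervals. An interval lay wholly inside a 1.75-fold change in either direction, the size named in the series' design text, for 33 of the 39 members at 2 h, 36 at 4 h and 33 at 8 h. The shares of all probe sets were 98.3%, 98.8% and 97.3%. For the remaining members a change of that size lay within the interval. The selection that the design text describes, an F-test over the 6 groups together with a 1.75-fold change, took 122 probe sets (0.684%) and 0 members. The F-test alone called 6.14% of all probe sets and 2 members, both Z-disc genes: Pdlim5 by its first probe set (adjusted p = 0.00629) and Tcap (adjusted p = 0.00833). The count of 2 fell to 1 or 0 when any of 22 of the 28 arrays was left out. It remained 2 without IL-1b 2 h replicate 2, vehicle 2 h replicate 7, vehicle 4 h replicate 1, 5 or 7, or vehicle 8 h replicate 9.

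**Figure D1:**
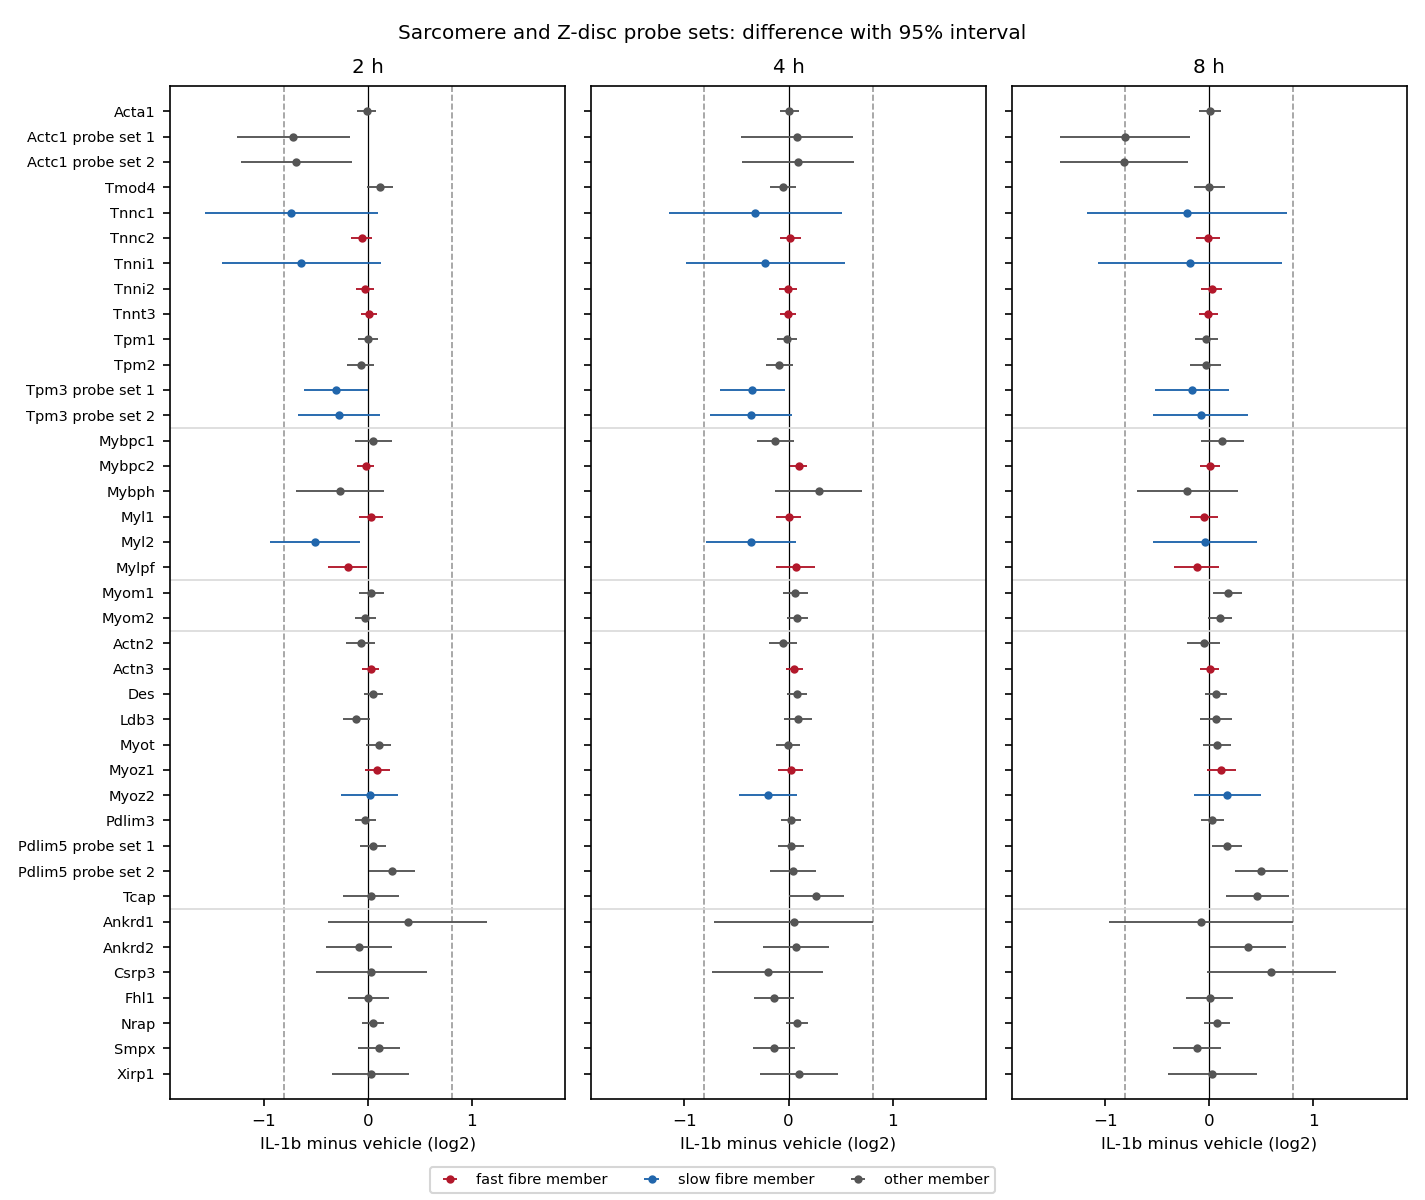
Difference between IL-1b and vehicle muscle (log2, horizontal axis) for each of the 39 probe sets in 3 panels for 2, 4 and 8 h; points are limma estimates, bars 95% intervals, red fast, blue slow and grey other members, and dashed lines mark 1.75-fold in either direction. The intervals of the 8 fast members lie inside the dashed lines at every time, while 3, 4 and 4 of the 6 slow probe sets do at 2, 4 and 8 h.

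Thin filament genes had 13 probe sets, of which 0 passed at any time, and 2, 1 and 2 had an unadjusted p under 0.05 at 2, 4 and 8 h. The 2 at 2 h and the 2 at 8 h are the Actc1 probe sets. The shares of all probe sets, for this and the other roles, were 10.6%, 8.78% and 12.9%. Differences ran between -0.74 and 0.12 at 2 h, between -0.36 and 0.09 at 4 h and between -0.82 and 0.02 at 8 h on the log2 scale. Acta1, the main actin of adult skeletal muscle, is named here after its values were seen. It differed by -0.01 ± 0.04 (SE, n = 5 and 5) at 2 h, 0.01 ± 0.04 (n = 5 and 5) at 4 h and 0.01 ± 0.05 (n = 3 and 5) at 8 h, and its 95% interval at 2 h ran from -0.10 to 0.08. Tropomyosin genes Tpm1 and Tpm2 differed by between -0.09 and -0.0013 over the 3 times. Tmod4, which caps the pointed end of the thin filament, differed by 0.12 at 2 h, -0.05 at 4 h and 0.0014 at 8 h.

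Actc1, the cardiac actin that skeletal muscle makes during development and regeneration, had the largest absolute thin filament t at 2 h and at 8 h. At 2 h its first probe set gave -0.68, -0.72, 0.10, -0.40 and -0.31 on the IL-1b arrays in order of replicate number, against 0.79, 0.47, 0.53, 0.13 and -0.36 on the vehicle arrays. The groups overlapped through vehicle replicate 11, which lay among the IL-1b values. At 4 h the IL-1b arrays had 0.20, -0.87, -0.51, 0.40 and -0.19, and the vehicle arrays 0.24, -0.25, -0.68, -0.76 and 0.07, with wide overlap. At 8 h the second probe set had -1.40, -0.06 and -0.06 on the IL-1b arrays and 0.18, 0.47, 0.27, 0.11 and 0.54 on the vehicle arrays. All 3 IL-1b values were below all 5 vehicle values, and 1 of them, replicate 14, stood far below the other two. The difference was -0.72 ± 0.26 at 2 h (95% interval -1.26 to -0.17, adjusted p = 0.339, limma) and -0.82 ± 0.30 at 8 h (-1.44 to -0.21, adjusted p = 0.16). Without IL-1b 8 h replicate 14 the difference at 8 h was -0.37 (adjusted p = 0.654). Both Actc1 probe sets measured the same variation (r = 0.998 of deviations from group means), so they do not count as separate observations.

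Among slow members, Tnnc1 (the slow and cardiac troponin C, the calcium sensor of the thin filament) and Tnni1 (slow troponin I) had the widest swings of any sarcomere gene and are named after their values were seen. At 2 h Tnnc1 had -0.76, -0.97, -0.56, -0.02 and -0.53 on the IL-1b arrays, against 0.14, -0.40, 0.97, -0.19 and 0.31 on the vehicle arrays. The IL-1b values lay mostly low, but replicate 10 reached into the vehicle range. At 4 h the IL-1b arrays had -0.33, -1.47, -0.56, 0.02 and -0.71, and the vehicle arrays 0.78, -2.32, -0.61, 0.29 and 0.39, of which replicate 3 was the lowest value of all 28 arrays. At 8 h the values were 0.26, 1.17 and -0.31 on the IL-1b arrays and 0.02, 0.84, 0.79, 0.64 and 0.66 on the vehicle arrays, which overlapped. Tnnc1 differed by -0.74 ± 0.40 at 2 h (95% interval -1.57 to 0.10, adjusted p = 0.504), -0.32 at 4 h (adjusted p = 0.928) and -0.21 at 8 h (adjusted p = 0.952). Tnni1 followed it array by array. It had -0.74, -1.0, -0.73, 0.03 and -0.66 on the IL-1b 2 h arrays and 0.17, -0.47, 0.47, -0.35 and 0.25 on the vehicle 2 h arrays, with vehicle 4 h replicate 3 again lowest at -2.12. Its difference at 2 h was -0.64 ± 0.37 (-1.40 to 0.13, adjusted p = 0.521).

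Tpm3, the slow tropomyosin, had the largest absolute thin filament t at 4 h. Its first probe set had -0.15, -0.59, -0.59, -0.08 and -0.32 on the IL-1b 4 h arrays and 0.16, -0.55, -0.18, 0.24 and 0.33 on the vehicle 4 h arrays. Vehicle replicates 3 and 5 lay among the IL-1b values and the other three above all of them. The difference was -0.35 ± 0.15 (95% interval -0.66 to -0.04, adjusted p = 0.444), and the second probe set gave -0.36 ± 0.19 (adjusted p = 0.635). Without vehicle 4 h replicate 3 the first probe set differed by -0.49 (adjusted p = 0.114). The fast thin filament genes Tnni2, Tnnc2 and Tnnt3 differed by between -0.06 and 0.02 at the 3 times.

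Thick filament genes had 6 probe sets and 0 calls, with 2, 1 and 0 at an unadjusted p under 0.05 at 2, 4 and 8 h. Myl2, the slow and cardiac regulatory light chain, had -0.47, -0.29, -0.43, 0.07 and -0.27 on the IL-1b 2 h arrays, against 0.29, -0.15, 0.67, -0.13 and 0.46 on the vehicle 2 h arrays. Of the IL-1b arrays only replicate 10 reached the vehicle values. At 4 h its values were -0.42, -0.17, -0.46, -0.15 and -0.0063 on the IL-1b arrays and 0.53, -0.59, -0.13, 0.40 and 0.40 on the vehicle arrays. The difference was -0.51 ± 0.21 at 2 h (95% interval -0.94 to -0.08, adjusted p = 0.416), -0.36 ± 0.21 at 4 h (adjusted p = 0.704) and -0.04 at 8 h. Mylpf, the fast counterpart of Myl2, differed by -0.19, 0.07 and -0.12 at 2, 4 and 8 h without passing.

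Mybpc2, the fast myosin-binding protein C, was the 1 member whose groups did not overlap at 4 h, where 3.5% of all probe sets did not overlap. At 2 h the count was 0 members, against 2.41% of all probe sets. It had 0.05, 0.08, 0.04, 0.04 and 0.05 on the IL-1b arrays and -0.12, -0.04, -0.08, 0.0055 and -0.0033 on the vehicle arrays. All 5 IL-1b values were above all 5 vehicle values by a narrow margin, and the difference was 0.10 ± 0.04 (95% interval 0.01 to 0.18, adjusted p = 0.41). Mybpc1, the slow-type myosin-binding protein C, was placed in neither the fast nor the slow set. It had the largest absolute thick filament t at 8 h, with 0.16, -0.04 and 0.08 on the IL-1b arrays and -0.49, 0.02, 0.06, 0.03 and 0.07 on the vehicle arrays. Its difference of 0.13 ± 0.10 (adjusted p = 0.747) rested on vehicle replicate 1, without which it was 0.02. The fast essential light chain Myl1 differed by between -0.05 and 0.03, and Mybph by -0.26, 0.29 and -0.21 at 2, 4 and 8 h.

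In the M-band, Myom1 and Myom2 (myomesins, which crosslink thick filaments) had 0 calls and intervals inside 1.75-fold at every time. Myom1 had 0.05, 0.09, 0.01, -0.05 and 0.02 on the IL-1b 2 h arrays and -0.11, -0.04, 0.14, -0.08 and 0.06 on the vehicle 2 h arrays, which overlapped (difference 0.03 ± 0.06, adjusted p = 0.836). At 8 h it had 0.07, 0.16 and 0.06 on the IL-1b arrays, all above the vehicle values of -0.15, -0.01, 0.02, -0.12 and -0.14. That difference was 0.18 ± 0.07 (95% interval 0.04 to 0.32, adjusted p = 0.191). Myom2 had -0.11, 0.03, 0.12, -0.02 and -0.02 on the IL-1b 4 h arrays and -0.15, -0.08, -0.10, -0.0032 and -0.09 on the vehicle 4 h arrays, a difference of 0.08 ± 0.05 (adjusted p = 0.712). Those groups overlapped.

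Z-disc genes had 11 probe sets with intervals inside 1.75-fold at all 3 times, and 0 passed in any comparison of IL-1b with vehicle. Differences were above 0 for 8 of the 11 at 2 h, 8 at 4 h and 10 at 8 h, with medians of 0.0311, 0.0273 and 0.0768. Of all 17831 probe sets, 7721, 9147 and 8889 were above 0. An unadjusted p under 0.05 was reached by 1, 1 and 3 of the 11, against 10.6%, 8.78% and 12.9% of all probe sets. The 3 at 8 h are Tcap and both Pdlim5 probe sets. At 8 h, where 6.67% of all probe sets did not overlap between the groups, 5 member probe sets did not: both of Actc1 on the low side, and Myom1, Des and the second of Pdlim5 on the high side. Des, which encodes desmin, the intermediate filament that ties Z-discs together, had 0.07, 0.01 and 0.02 on the IL-1b 8 h arrays against -0.08, -0.03, -0.05, -0.0089 and -0.0057 on the vehicle arrays. The gap is small beside the spread of most genes, and the difference was 0.07 ± 0.05 (adjusted p = 0.716).

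Pdlim5, a scaffold of the Z-disc with PDZ and LIM domains, came nearest to the threshold. Its second probe set had 0.02, 0.13, 0.32, 0.19 and 0.26 on the IL-1b 2 h arrays and -0.20, 0.04, -0.16, -0.02 and 0.08 on the vehicle 2 h arrays. On the 4 h arrays the values were -0.32, 0.20, 0.42, -0.03 and -0.09 with IL-1b and -0.10, 0.18, -0.04, 0.06 and -0.14 with vehicle. On the 8 h arrays they were 0.24, 0.24 and 0.35 with IL-1b and -0.53, -0.08, -0.35, -0.08 and -0.08 with vehicle. The groups overlapped at 2 and 4 h, while at 8 h every IL-1b value was above every vehicle value. The difference was 0.24 ± 0.11 at 2 h (adjusted p = 0.456), 0.04 at 4 h and 0.50 ± 0.12 at 8 h (95% interval 0.25 to 0.75, adjusted p = 0.0173), which is a fold between 1.19 and 1.69. At an adjusted p of 0.05, which 4.03% of all probe sets passed at 8 h, it was the 1 member called. Leaving out single arrays gave values from 0.42 to 0.54 at 8 h with a smallest adjusted p of 0.0166.

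The first Pdlim5 probe set behaved differently over time in both arms, and it is one of the F-test calls. It had 0.0027, 0.15, 0.16, 0.32 and 0.21 on the IL-1b 2 h arrays against 0.19, 0.15, 0.0019, 0.13 and 0.13 on the vehicle 2 h arrays. At 4 h it had -0.06, -0.0019, -0.03, -0.04 and 0.06 with IL-1b against -0.07, 0.07, -0.08, -0.06 and -0.07 with vehicle. At 8 h it had 0.09, 0.04 and -0.05 with IL-1b against -0.29, -0.02, -0.26, -0.03 and -0.10 with vehicle. Both arms were high at 2 h, and their groups overlapped at every time. The difference at 8 h was 0.17 ± 0.07 (adjusted p = 0.253). The sources used here do not say which transcripts each of the 2 probe sets reads.

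Tcap, or telethonin, caps the end of titin in the Z-disc. On the 2 h arrays it had -0.0050, -0.29, -0.31, -0.33 and -0.27 with IL-1b and -0.48, -0.38, 0.09, -0.41 and -0.17 with vehicle. On the 4 h arrays it had 0.06, 0.18, 0.40, 0.08 and 0.22 with IL-1b and -0.30, -0.13, 0.10, 0.05 and -0.11 with vehicle. On the 8 h arrays it had 0.23, 0.72 and 0.28 with IL-1b and -0.02, -0.58, 0.30, 0.0050 and 0.02 with vehicle. Both arms lay low at 2 h, with means of -0.240 with IL-1b and -0.271 with vehicle, and both means were higher later. They were 0.189 and -0.0766 at 4 h, and 0.409 and -0.0538 at 8 h. Vehicle 8 h replicate 13 was the 1 vehicle array that reached the IL-1b values at 8 h. The difference between IL-1b and vehicle was 0.03 at 2 h, 0.27 ± 0.13 at 4 h (adjusted p = 0.565) and 0.46 ± 0.15 at 8 h (95% interval 0.16 to 0.77, adjusted p = 0.088). The other Z-disc members (the actinins Actn2 and Actn3, the calsarcins Myoz1 and Myoz2, the actinin binding proteins Myot, Ldb3 and Pdlim3, and Des) differed by between -0.20 and 0.17 over the 3 times.

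**Figure D2:**
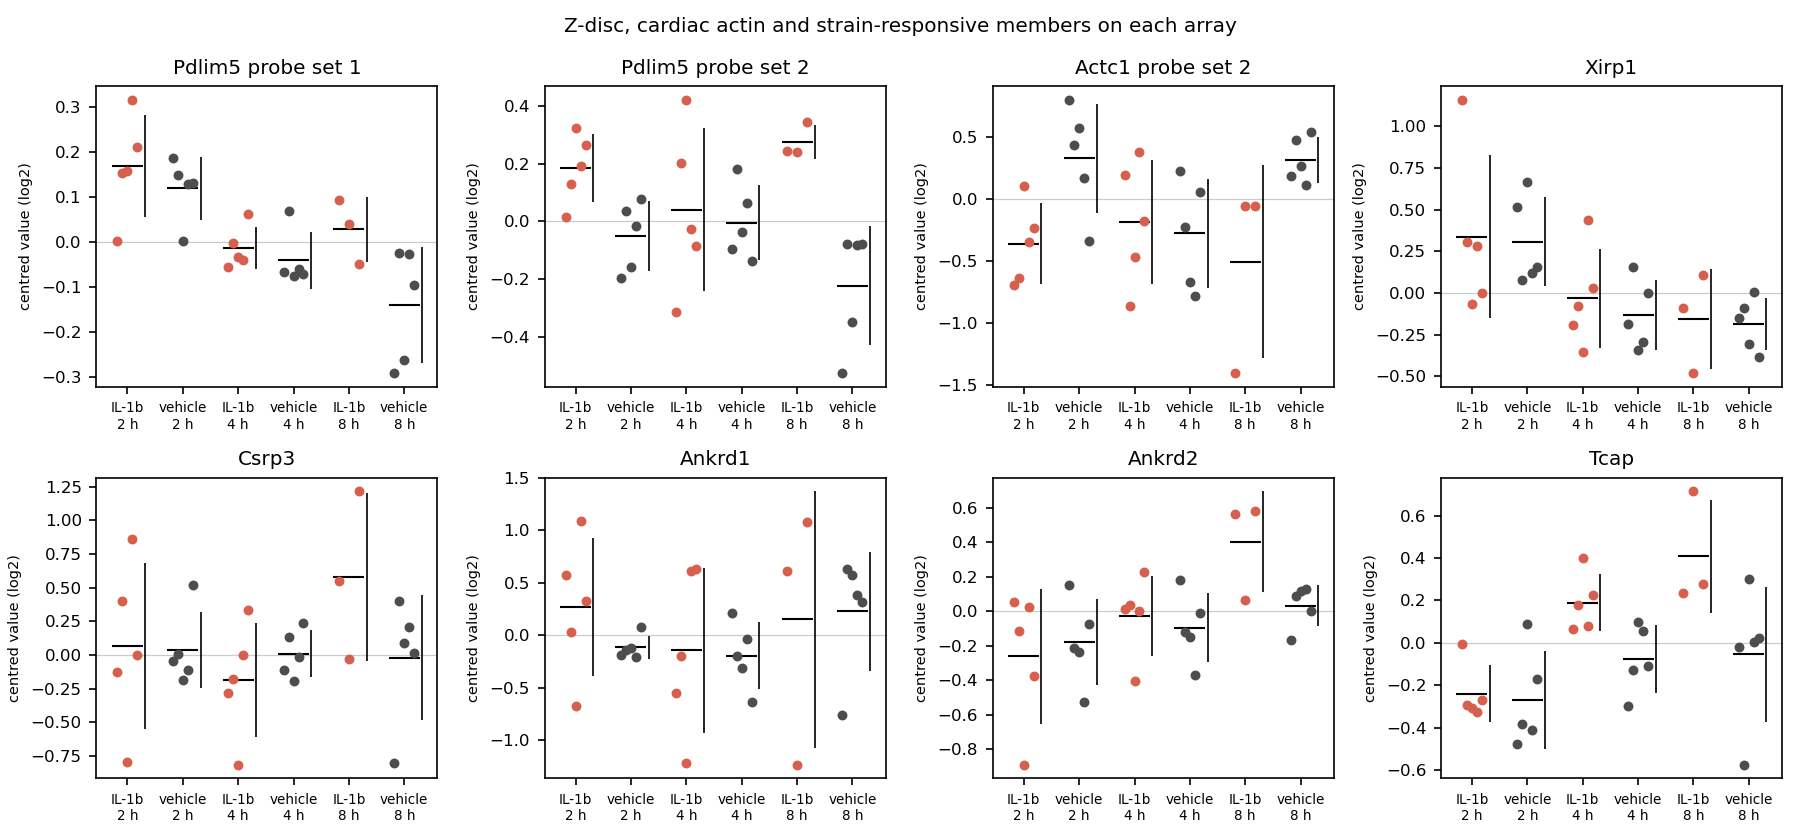
Centred log2 values on every array of Pdlim5 (both probe sets), Actc1, Xirp1, Csrp3, Ankrd1, Ankrd2 and Tcap at 2, 4 and 8 h; red points are IL-1b and grey points vehicle arrays, horizontal bars are group means and vertical lines the SD, and vertical scales differ between panels. The second Pdlim5 probe set and Actc1 have groups that do not overlap at 8 h, and Ankrd1 on the IL-1b 8 h arrays runs from -1.23 to 1.08.

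Strain-responsive and junction genes had 7 probe sets, with 0 calls and 0, 0 and 1 at an unadjusted p under 0.05 at 2, 4 and 8 h. Their medians were 0.0316, 0.0489 and 0.0310. Smpx, a small protein of the costamere region, had 0.01, 0.13, 0.13, 0.13 and 0.14 on the IL-1b 2 h arrays and 0.02, 0.16, -0.29, 0.05 and 0.05 on the vehicle 2 h arrays, which overlapped. Its difference of 0.11 ± 0.10 (adjusted p = 0.669) was 0.04 without vehicle 2 h replicate 7. Nrap, an actin-binding protein of the myotendinous junction, had -0.05, 0.09, -0.0051, 0.0045 and 0.12 on the IL-1b 4 h arrays and -0.11, -0.05, -0.05, -0.0045 and -0.01 on the vehicle 4 h arrays. The difference was 0.08 ± 0.05 (adjusted p = 0.785), and the groups overlapped.

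Ankrd2, an ankyrin-repeat protein that binds titin, had the largest absolute t of this set at 8 h. It had 0.57, 0.07 and 0.58 on the IL-1b 8 h arrays against -0.16, 0.09, 0.12, 0.13 and -0.0012 on the vehicle 8 h arrays, so 2 of the IL-1b arrays stood above the rest and replicate 22 did not. The difference was 0.37 ± 0.18 (95% interval 0.01 to 0.74, adjusted p = 0.369). Csrp3 (muscle LIM protein) and Ankrd1, named after their values were seen, were likewise lowest on replicate 22 and highest on replicate 26 among the IL-1b 8 h arrays. Csrp3 had 0.55, -0.03 and 1.22 with IL-1b at 8 h and -0.80, 0.40, 0.09, 0.21 and 0.01 with vehicle, a difference of 0.60 ± 0.30 (-0.02 to 1.21, adjusted p = 0.414). Ankrd1 had 0.61, -1.23 and 1.08 with IL-1b at 8 h and -0.76, 0.63, 0.57, 0.38 and 0.32 with vehicle. At 2 h Ankrd1 had 0.57, 0.03, -0.68, 1.08 and 0.33 with IL-1b, around a narrow vehicle group of -0.19, -0.14, -0.12, -0.21 and 0.07. Its difference there was 0.38 ± 0.37 (adjusted p = 0.693). Fhl1 differed by between -0.14 and 0.0053 over the 3 times.

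In vehicle muscle over time, 0 members passed between 4 and 2 h, 8 and 2 h or 8 and 4 h, where 0.101%, 0.852% and 0.129% of all probe sets were called. An unadjusted p under 0.05 was reached by 8, 2 and 5 member probe sets, against 11.2%, 10.3% and 8.42% of all probe sets. Both Actc1 probe sets are among the 8 and among the 5. These comparisons share arrays with each other and with the comparisons of IL-1b. The first Pdlim5 probe set did not overlap between vehicle at 8 h and vehicle at 2 h, where 2.44% of all probe sets did not overlap, with a difference of -0.26 ± 0.06 (95% interval -0.38 to -0.14, adjusted p = 0.0181). It was the 1 member called there at an adjusted p of 0.05, which 1.86% of all probe sets passed. Its difference between 4 and 2 h was -0.16 ± 0.06 (adjusted p = 0.328). Xirp1, a Xin protein of the myotendinous junction, was the other member without overlap. It had -0.15, -0.09, -0.31, 0.0047 and -0.38 in vehicle muscle at 8 h against 0.52, 0.08, 0.66, 0.12 and 0.16 at 2 h, all lower at 8 h (difference -0.49 ± 0.18, adjusted p = 0.226). Tnni2 did not overlap between 4 and 2 h, with a difference of -0.09 ± 0.04 (adjusted p = 0.44, 2.57% of probe sets without overlap). Tmod4 did not overlap between 8 and 4 h, with a difference of -0.11 ± 0.06 (adjusted p = 0.684, 2.19% without overlap). These 4 were named because their values did not overlap.

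The IL-1b effect itself was compared between times. Of the member probe sets, 0 passed for 4 against 2 h, 8 against 4 h and 8 against 2 h, where 0.0505%, 0.174% and 0.527% of all probe sets were called. An unadjusted p under 0.05 was reached by 3, 3 and 1 of them, against 10%, 7.13% and 11.1%. Both Actc1 probe sets are in the counts for 4 against 2 h and 8 against 4 h. The smallest adjusted p were 0.488, 0.366 and 0.407.

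Fast and slow fibre members differed in how far they moved between arrays. The 8 fast probe sets (Actn3, Tnnt3, Tnni2, Tnnc2, Myl1, Mylpf, Mybpc2 and Myoz1) had medians of -0.00418, 0.0178 and -0.00173 between IL-1b and vehicle at 2, 4 and 8 h. The 6 slow probe sets (Tnni1, Tnnc1, Tpm3 with 2, Myl2 and Myoz2) had medians of -0.408, -0.333 and -0.124, and 5, 6 and 5 of the 6 were below 0. Of all 17831 probe sets, 10110, 8684 and 8942 were below 0. The slow-type gene Mybpc1 is not in the slow set. Its means with IL-1b and vehicle were -0.0318 and -0.0847 at 2 h, -0.113 and 0.0133 at 4 h, and 0.0637 and -0.0631 at 8 h. None of the 14 passed at any time (limma, 1 fast and 1 slow probe set at an unadjusted p under 0.05 at 2 h, 1 and 1 at 4 h, 0 and 0 at 8 h), and the slow probe sets are correlated with each other (r from 0.31 to 0.965 over their 15 pairs). The mean over slow members was -0.347 ± 0.249 in IL-1b muscle and 0.0837 ± 0.281 in vehicle muscle at 2 h (SD, n = 5 each). At 4 h it was -0.369 ± 0.243 with IL-1b and -0.0782 ± 0.690 with vehicle. At 8 h it was 0.260 ± 0.368 with IL-1b (n = 3) and 0.339 ± 0.345 with vehicle (n = 5). The fast mean stayed between -0.108 and 0.0904 on every array. In bulk muscle fewer slow fibres and less slow RNA per fibre cannot be told apart.

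The fast mean minus the slow mean was higher in IL-1b than in vehicle muscle by 0.414 at 2 h, 0.322 at 4 h and 0.0737 at 8 h, while the SD between arrays of a group was 0.263, 0.521 and 0.327. Only the difference at 2 h was larger than that SD. At 4 h it was 0.592 without vehicle 4 h replicate 3, whose slow mean was -1.16, and 0.161 without vehicle 4 h replicate 1. At 8 h it was 0.224 without IL-1b replicate 22, 0.198 without vehicle replicate 1, 0.142 without IL-1b replicate 14, 0.0428 without vehicle replicate 21, 0.00465 without vehicle replicate 9 and -0.144 without IL-1b replicate 26, so its direction depended on 1 array. Macrophage markers (9 of 10 measured, 0 called) also lay lower with IL-1b at 2 h, with array means from -0.320 to -0.101 with IL-1b and from -0.0917 to 0.334 with vehicle. Erythrocyte markers (3 of 8 measured) lay lower too, from -0.216 to -0.0552 with IL-1b and from -0.0220 to 0.111 with vehicle, and so did endothelial markers in part (-0.136 to 0.0644 with IL-1b, 0.0546 to 0.165 with vehicle) and fibroblast markers (-0.168 to -0.0333 with IL-1b, -0.0930 to 0.456 with vehicle). The mean of satellite cell markers (9 of 9 measured) lay higher, from 0.105 to 0.220 with IL-1b and from -0.00473 to 0.0710 with vehicle. Their median difference at 2 h was only 0.00248, while Vcam1, the 1 of them called, differed by 1.63. Neutrophil markers ran higher, from 0.00379 to 0.626 with IL-1b and from -0.152 to 0.0167 with vehicle. The other lists overlapped, with means in IL-1b and vehicle muscle of -0.0540 and 0.121 for smooth muscle. Those means were -0.137 and 0.169 for adipocyte markers and -0.0567 and -0.00749 for nerve and Schwann cell markers. The part of all these markers in the slow values was not tested. At 4 h the macrophage markers ran from -0.471 to 0.269 with IL-1b and from -0.190 to 0.189 with vehicle, and at 8 h from 0.0897 to 0.330 with IL-1b and from -0.128 to 0.0527 with vehicle. With centred values, whether any defining marker was absent cannot be read.

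**Figure D3:**
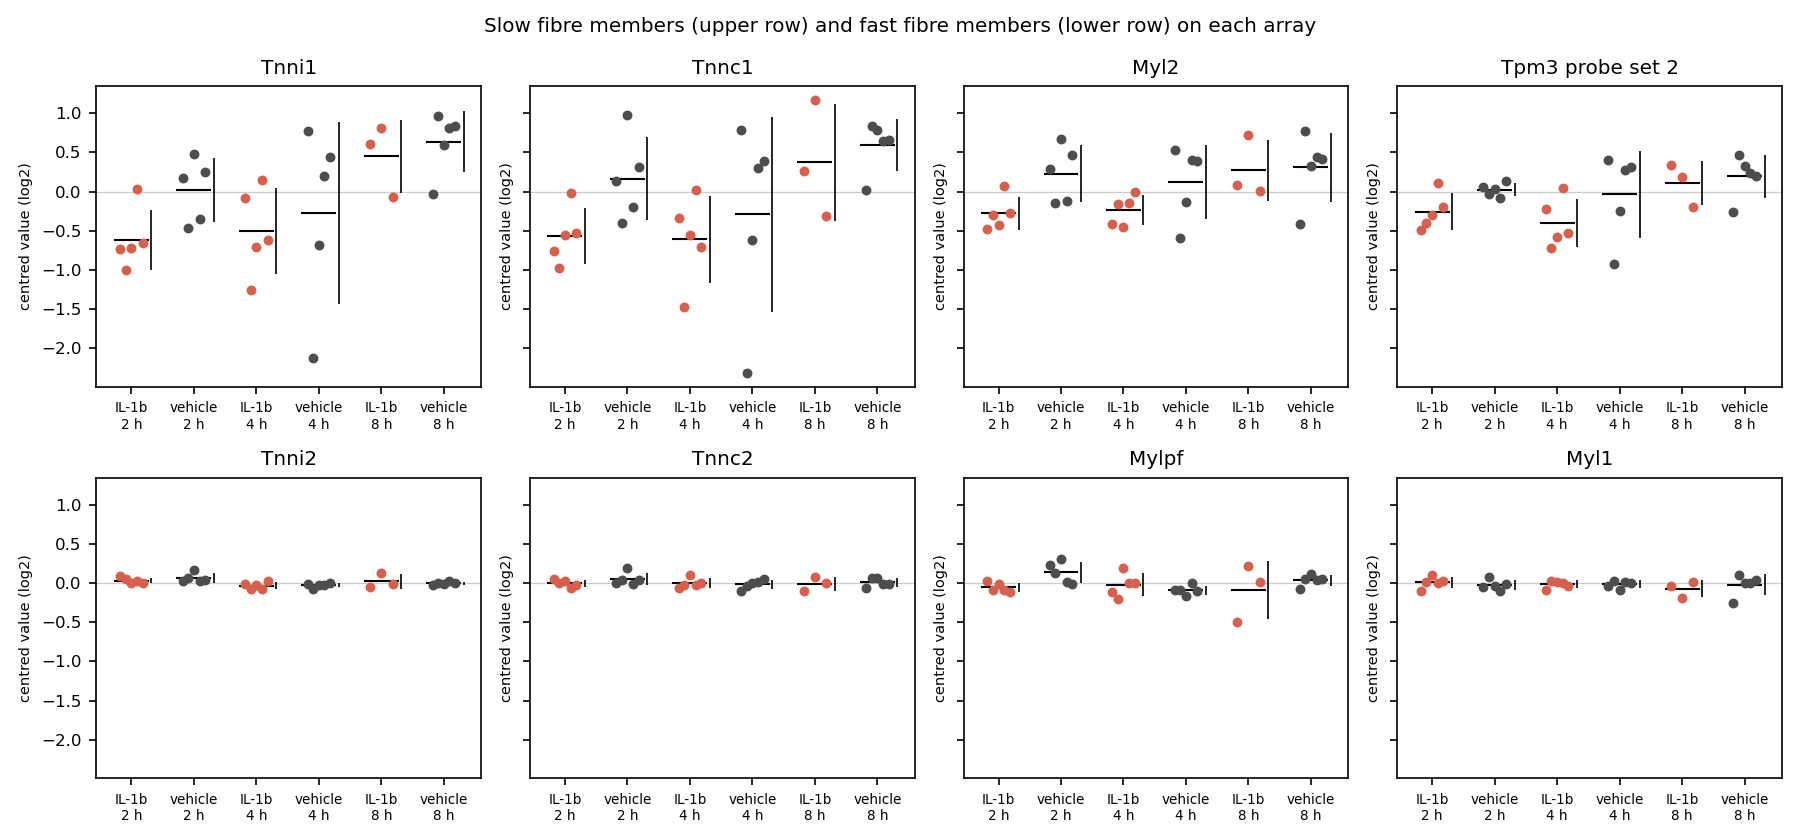
Centred log2 values on every array of the slow members Tnni1, Tnnc1, Myl2 and Tpm3 (upper panels) and the fast members Tnni2, Tnnc2, Mylpf and Myl1 (lower panels) at 2, 4 and 8 h; red points are IL-1b and grey points vehicle arrays, horizontal bars are means and vertical lines the SD. Slow members spread widely, with vehicle 4 h replicate 3 at -2.32 for Tnnc1, while the fast mean stays between -0.108 and 0.0904.

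The spread between arrays of one group separated the isoforms further. The residual SD had a median of 0.0558 over fast members and 0.341 over slow members, against 0.102 over all 39 and 0.146 over all 17831 probe sets. Of the 8 fast probe sets, 7 were in the lowest 10% of all probe sets, Mylpf (0.148) being the exception, and of the 6 slow probe sets 5 were in the highest 10%. Mybpc1, a slow-type gene outside the slow set, had a residual SD of 0.139. Tnnc1 had a residual SD of 0.693, the 8th highest of all probe sets, and its values spanned an 11.2-fold range. Tnni1 followed with 0.637 and an 8.53-fold range, and Ankrd1 with 0.636. Actc1 had 0.450 and 0.442 and Csrp3 0.442. At the other end, Tnnt3 had a residual SD of 0.0357, the 22nd lowest, and spanned a 1.10-fold range over all 28 arrays. Actn3 (0.0400), Mybpc2 (0.0426), Tnni2 (0.0470) and Acta1 (0.0521) lay close to it. Centred values do not show how near a probe set is to its brightest reading, and the part of that in the narrow spread was not tested.

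Deviations from the group means were correlated over the 28 arrays for all 741 pairs of member probe sets, with a median r of 0.155 and a range from -0.69 to 0.998. The arrays share their normalization, and the correlations are descriptions. The 15 pairs of the 6 slow probe sets had r from 0.31 to 0.965 with a median of 0.78, and from 0.266 to 0.982 with a median of 0.757 without the 3 arrays of widest spread (n = 25). Myoz2 was the least tied of them, with r of 0.31 to Tnnc1, 0.411 to Tnni1, 0.363 and 0.461 to Tpm3 and 0.662 to Myl2. Among the 10 pairs without Myoz2, a block chosen after the values were seen, r ran from 0.683 to 0.965 with a median of 0.818, and from 0.58 to 0.932 with a median of 0.744 without vehicle 4 h replicate 3 (n = 27). Mybpc1, a slow-type gene outside the slow set, had r of 0.153 to Tnnc1, 0.258 to Tnni1, 0.359 and 0.448 to Tpm3, 0.446 to Myl2 and 0.704 to Myoz2.

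The 28 pairs of the 8 fast probe sets had r from -0.288 (Tnni2 with Myl1) to 0.804 (Tnnt3 with Myoz1) with a median of 0.454, and a median of 0.395 without the 3 wide arrays. Fast members therefore did not all vary in one direction. The 21 pairs of strain-responsive and junction genes had r from -0.0475 to 0.814 with a median of 0.532, and a median of 0.452 without the 3 wide arrays. Csrp3 had r of 0.814 with Fhl1, 0.806 with Ankrd1 and 0.737 with Nrap, but 0.514 with Smpx and 0.295 with Xirp1. Pairs across roles reached similar values, such as Tpm1 with Myl1 (0.873, and 0.749 without the 3 wide arrays), Myom1 with Actn3 (0.844 and 0.85), Tpm1 with Myot (0.842 and 0.682) and Myl1 with Myot (0.838 and 0.678). These pairs were named after their values were seen.

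**Figure D4:**
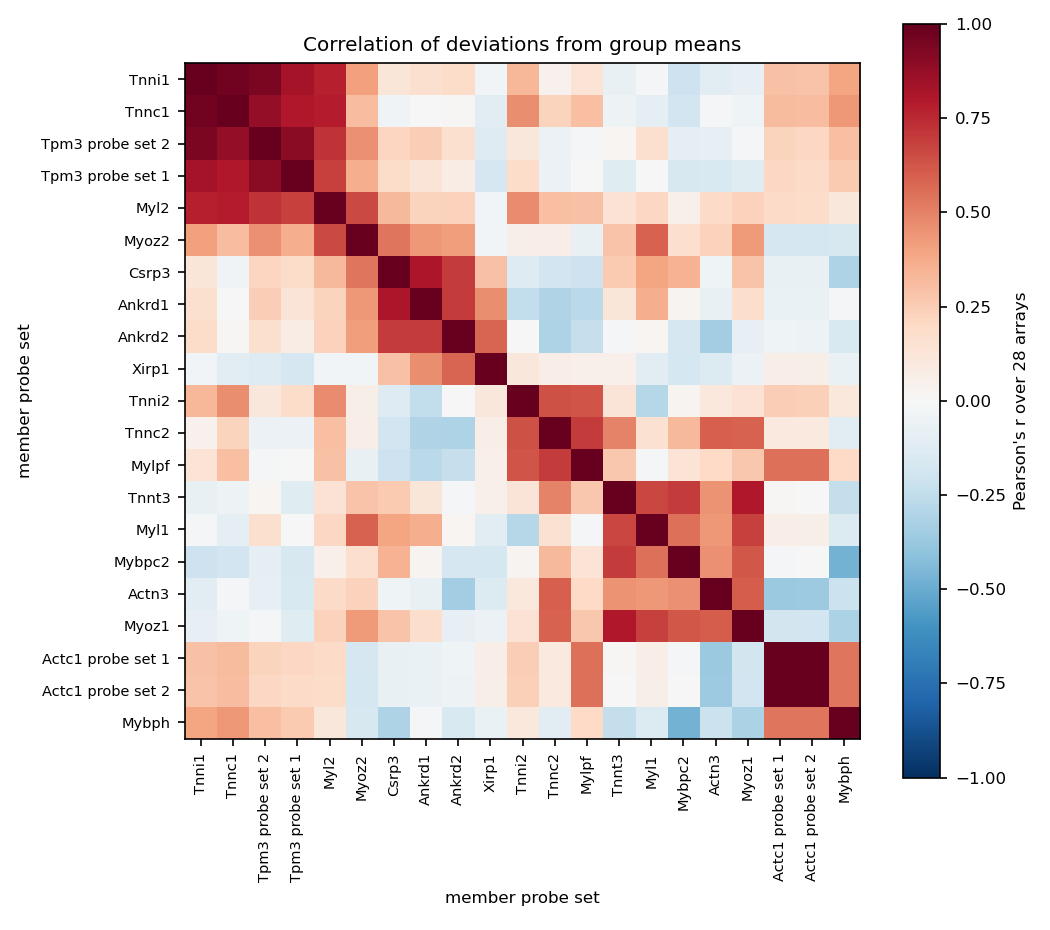
Correlation r of deviations from group means over 28 arrays for pairs of 21 of the 39 member probe sets, from blue (negative) to red (positive). Tnni1, Tnnc1, Myl2 and the 2 Tpm3 probe sets have r from 0.683 to 0.965, and Csrp3, Ankrd1 and Ankrd2 from 0.695 to 0.806, with a median of 0.161 between these groups.

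The slow mean was also set against genes that are not members. Across the 28 arrays it correlated with the mean of 8 slow fibre calcium and metabolism genes (r = 0.841, and 0.839 without the 3 wide arrays). Within that list Atp2a2, the calcium pump of slow and cardiac muscle, had r = 0.96, while the other 8 probe sets ran from -0.116 (Pln) to 0.495 (Fabp3). Among other sarcomere genes Myl6b, a slow myosin light chain, had r = 0.606. These were named after their values were seen. The mean of fast members had r = 0.164 with it, and -0.189 without the 3 wide arrays. Of the cell type markers, macrophage markers had r of 0.482 (0.422 without the 3 wide arrays), erythrocyte markers 0.39 (0.374), satellite cell markers 0.326 (0.465) and fibroblast markers 0.291 (0.148). The other 5 marker lists ran from -0.194 to 0.183, and the spread of the array had r of 0.136 (0.293). The calcium and metabolism lists had 0 of 8 slow and 0 of 8 fast genes called in the comparisons of IL-1b with vehicle. Of all probe sets, 0.0729%, 0.847% and 2.09% were called there at 2, 4 and 8 h. The slow list, with 9 probe sets, had medians of 0.0105, -0.0886 and -0.0772 at 2, 4 and 8 h.

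Other sarcomere and cytoskeleton genes, 41 of 58 of them measured, had 1 call at 8 h, where 2.09% of all probe sets were called. Ky, a peptidase-like protein that mice need for normal growth of postural muscle, was lower with IL-1b than with vehicle at 8 h. It had -0.99, -0.93 and -1.04 on the IL-1b 8 h arrays and 0.59, 0.01, 0.33, 0.47 and 0.65 on the vehicle 8 h arrays, so that a wide gap separated the groups. The difference was -1.40 ± 0.13 (SE, limma adjusted p = 6.93e-08), a fold of 0.380. At 2 h the difference was -0.22 (adjusted p = 0.477) and at 4 h 0.05 (adjusted p = 0.959), and the effect at 8 h minus the effect at 4 h was -1.45 ± 0.17 (adjusted p = 3.42e-05). The vehicle 8 h arrays enter both differences. In vehicle muscle Ky was higher at 8 h than at 4 h by 0.47 ± 0.11 (limma adjusted p = 0.0637), without passing. Leaving out single arrays gave differences between IL-1b and vehicle from -1.50 to -1.34 at 8 h.

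Among 28 measured transcription factors of fibre type and sarcomere genes, 1 passed at 8 h, where 2.09% of all probe sets did. Mrtfa, an actin-sensing coactivator of serum response factor, had -0.82, -0.59 and -0.71 on the IL-1b 8 h arrays and 0.50, 0.13, -0.30, -0.10 and 0.35 on the vehicle 8 h arrays. The groups did not overlap, and the difference was -0.82 ± 0.13 (adjusted p = 0.000231). Further quantile normalization gave -0.61 (adjusted p = 0.017) and a fit of the 8 h groups alone an adjusted p of 0.071. In vehicle muscle 2 factors were lower at 8 h than at 2 h, where 0.852% of all probe sets were called: Yap1, a coactivator of TEAD factors, by a difference of -0.30 ± 0.06 (adjusted p = 0.00364) and Myod1, the myogenic factor MyoD, by -0.55 ± 0.12 (adjusted p = 0.0094). The Yap1 call was lost when replicate 1 or 7 of vehicle 2 h or replicate 9 or 21 of vehicle 8 h was left out. The Myod1 call was lost without any 1 of these arrays, and also without replicate 13 or 17 of vehicle 8 h. Between IL-1b and vehicle Myod1 differed by -0.47 ± 0.12 at 4 h without passing (adjusted p = 0.0397).

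**Figure D5:**
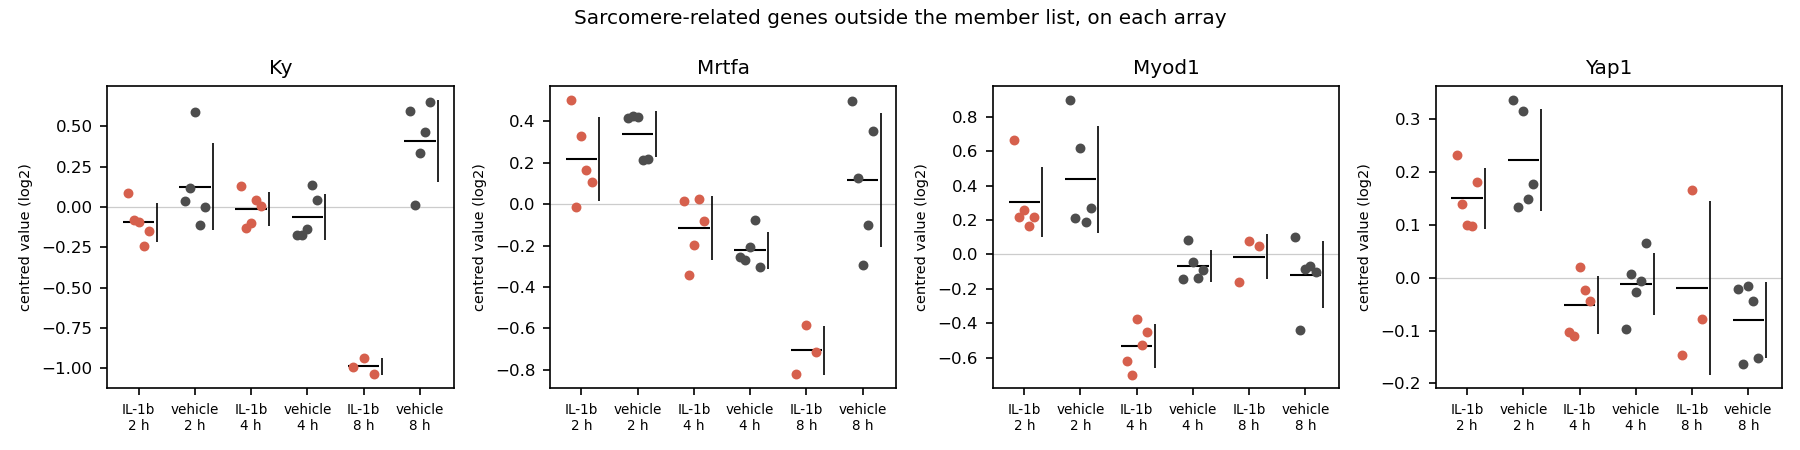
Centred log2 values on every array of Ky, Mrtfa, Myod1 and Yap1, which are not sarcomere members, at 2, 4 and 8 h; red points are IL-1b and grey points vehicle arrays, bars are means, vertical lines the SD, and vertical scales differ. The 3 IL-1b 8 h arrays of Ky lie between -1.04 and -0.93, below all other arrays.

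Markers of other cell types that muscle tissue holds were measured beside the members. Of all probe sets 0.0729%, 0.847% and 2.09% were called between IL-1b and vehicle at 2, 4 and 8 h, so 0 calls in a short list say little. Smooth muscle (7 of 7 genes measured), fibroblast (9 of 10), macrophage (9 of 10) and nerve and Schwann cell markers (7 of 10) had 0 calls at the 3 times. Endothelial markers (10 of 10) had 2 lower at 4 h, Kdr and Eng, with differences of -0.94 and -0.46 and a list median of -0.201. Of the adipocyte markers Plin4 was higher by 0.61 at 4 h and 0.85 at 8 h. The median of that list was -0.371 at 4 h and 0.368 at 8 h. Of the neutrophil markers Retnlg was higher by 1.28 at 2 h (list median 0.235). Of the satellite cell markers Vcam1 was higher by 1.63 at 2 h and Sdc4 by 0.67 at 8 h. The medians of that list were 0.00248 and -0.0744 at these times. Bpgm, an erythrocyte marker, was lower at 8 h, with a difference of -0.46, while the median of the 3 measured erythrocyte markers was 0.0707. The part of these cell types in the values of the sarcomere genes was not tested.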

How the data were processed

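The authors' deposited values are log2 values made with RMA (robust multi-array average), and mm9 is the build named, both per the submitters' processing notes. The log base is not stated and was taken as log2. The deposited table is centred per probe set (median 0 within 5e-07), so signal over background cannot be read and the number of arrays limits the precision. Names came from the platform annotation, in which 15620 probe sets have 1 symbol, 1370 several and 841 none. The members and gene lists were chosen with earlier results of these data known. A linear model of the 6 groups was fitted to all 28 arrays with limma 3.58.1 in R 4.3.3 (residual degrees of freedom 22, prior 3.95; median residual SD 0.146), and tested on simulated data. Adjusted p-values are Benjamini-Hochberg over 17831 probe sets, with a threshold of 0.01. Errors beside differences are SE. Values are printed for members past the threshold or of largest absolute moderated t in each role and time, and genes named otherwise are marked. Replicate numbers come from the sample titles. Same-numbered vehicle arrays at different times had correlations from -0.434 to 0.678, so the numbers were not taken to pair samples. Alternatives were other spread estimates, array weights, scalings, a filter, another threshold, fewer groups and arrays left out.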

Additional observations from a re-analysis of the deposited data

Results flagged for a closer look

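Of 120 groups of 5 arrays tested for a single array standing apart, 10 had one, where chance gives about 1 in 20 for independent groups. These are not independent, because they share arrays and the means tested hold genes that were also tested alone. The 10 therefore cannot be read as an excess. Vehicle 8 h replicate 1, one of the 3 arrays of widest spread, accounted for 5 of them. On it Tnnc1 was 0.0228 (others 0.645 to 0.842), Ankrd1 was -0.763 (others 0.316 to 0.628) and Mybpc1 was -0.495 (others 0.0218 to 0.0668). The slow mean was -0.252 there (others 0.395 to 0.653) and the mean of Csrp3, Ankrd1 and Ankrd2 was -0.577 (others 0.109 to 0.371).

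On IL-1b 2 h replicate 2, Smpx was 0.0144 (others 0.125 to 0.139) and Tcap was -0.00503 (others -0.327 to -0.269). Among the vehicle 2 h arrays, Tnnc2 was 0.192 on replicate 7 (others -0.0126 to 0.0387), Csrp3 was 0.518 on replicate 11 (others -0.185 to 0.00780) and Myom2 was -0.0487 on replicate 9 (others 0.0570 to 0.0721).

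The effect of IL-1b differed between times, by a test of the difference itself, for 2 genes that are not members. For Ky the effect at 8 h minus the effect at 4 h was -1.45 (adjusted p = 3.42e-05) and the effect at 8 h minus the effect at 2 h was -1.18 (adjusted p = 0.000303). For Mrtfa the effect at 8 h minus the effect at 4 h was -0.929 (adjusted p = 0.00909), just under the threshold. Its effect at 8 h minus the effect at 2 h was -0.70 and did not pass (limma adjusted p = 0.042). The changes of effect of these 2 genes were not refitted with arrays left out or in other settings. The Mrtfa difference at 8 h did not pass in 2 other settings.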

How the results depend on the processing

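With array weights, 7 members were called at 8 h (6 higher, 1 lower), the F-test called 14 members and the selection of the design text took 1, Csrp3. That fit called 14.7% of all probe sets at 8 h, gave IL-1b 8 h replicate 26 a weight of 27.99 against 0.188 to 2.42 for the other arrays, and its weights did not converge. At an adjusted p of 0.05, 1 member was called at 8 h (second Pdlim5 probe set) and 1 between vehicle at 8 h and 2 h (first Pdlim5 probe set). The count by the F-test was 1 with arrays centred on their medians and 1 without the 3 arrays of widest spread, and leaving out each array gave 0 to 2. At an adjusted p of 0.05 the F-test also called the second Pdlim5 probe set (adjusted p = 0.0408). These F-test alternatives were chosen after seeing the data. Apart from the F-test, every other count of called members was 0 in each setting run, leave-one-out included. Of 254 alternative values of 15 named member results, 250 kept their direction and side of the threshold, 4 came to pass it and 0 reversed. None of the 15 passed in the main fit, so none could lose a call. Another threshold, spread estimate, filter or choice of groups leaves the difference as it was, so its direction could not reverse there. Fast minus slow members ranged, with single arrays left out, from 0.345 to 0.526 at 2 h, from 0.161 to 0.592 at 4 h and from -0.144 to 0.224 at 8 h. A filter on the interquartile range kept 17 of 39 members. Numbers shared by vehicle groups were also used as a replicate block, which gave 0 members in all 3 vehicle comparisons, and with it Myod1 (-0.63, adjusted p = 0.355) and Yap1 (-0.33, adjusted p = 0.557) did not pass between 8 and 2 h. Fitting only the groups compared also ended these calls (adjusted p = 0.166 and 0.111), as did leaving out the 3 wide arrays for Myod1 (0.0162), and a trended and robust spread (0.01) and the filter (0.0141) for Yap1. No paired analysis was possible because IL-1b and vehicle groups at one time share no replicate number. Limits are the 3 arrays in the IL-1b 8 h group, the unread signal over background, and the 13 members that were not analysed here.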
